A study of Mus musculus with 24 samples.

Results

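The 32 genes described here encode the regulators and enzymes of sterol and fatty acid synthesis, and they were examined as regions of open chromatin in mouse embryonic stem cells. They were chosen by name, not by a measured value, from the 21896 protein-coding genes of the RefSeq table for GRCm38.p6. Every interval of the authors' tables that overlapped the body of a member, extended by 5 kb on each side, was taken as a member interval. That gave 395 of 299780 intervals in the table of untreated cells and 331 of 272268 in the table of inhibitor-treated cells. Almost all intervals are 201 bases wide. The assay was ATAC-seq, in which the Tn5 transposase cuts and tags accessible DNA, so a high value marks open chromatin and says nothing directly about RNA, protein or lipid levels.

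All libraries came from E14 cells, an embryonic stem cell line of mouse, kept on gelatin with serum and leukemia inhibitory factor. Of the 3 lines, WT carries the wild-type label and Smad2_KO1 and Smad2_KO2 are labelled as knockouts of Smad2, a transcription factor that carries Nodal and activin signals. Each line was assayed without inhibitor (Ctrl) and after 12 h in 200 nM INK128, an inhibitor of the kinase mTOR (Paused). Each of the 6 groups had 4 libraries of 50000 cells, 24 libraries in all. How each knockout was made is not given in the sources used here, and each knockout line is treated as 1 clone. Nothing in the labels says that the 4 libraries of a group came from separate cultures, so every p-value below measures only the spread between these libraries.

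Cholesterol and fatty acids are built from acetyl-CoA in the cytosol. When sterols run low, the escort protein SCAP carries the precursors of the SREBP transcription factors, encoded by Srebf1 and Srebf2, from the endoplasmic reticulum to the Golgi, where proteases release the active factors. INSIG proteins hold the complex back when sterols are plentiful. Active SREBPs bind sterol regulatory elements next to NF-Y and Sp1 sites in the promoters of synthesis genes, and mTOR complex signalling is a known positive input to the pathway.

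The sequences upstream of the member starts hold these neighbouring motifs, and those of 5 members are shown because their start sites were the RefSeq-annotated ones that differed between the lines in Paused cells. RefSeq windows were at hand for 25 of the 32 members. Stard4, Fdft1, Fdps, Fads1, Scd1, Sqle and Scd2 are named only. Each line below gives the 250 bases before the RefSeq start, 5′ to 3′ on the gene's strand (GRCm38.p6). They lie at chr15:82147019-82147268 on the plus strand for Srebf2, chr13:119690101-119690350 plus for Hmgcs1, chr5:114444019-114444268 plus for Mvk, chr8:122443423-122443672 minus for Mvd and chr11:100528001-100528250 minus for Acly. Capitals mark matches, on either strand, to the sterol regulatory element core TCACNCCAC, the E-box CACGTG, the NF-Y box CCAAT or the Sp1 box GGGCGG.
Srebf2: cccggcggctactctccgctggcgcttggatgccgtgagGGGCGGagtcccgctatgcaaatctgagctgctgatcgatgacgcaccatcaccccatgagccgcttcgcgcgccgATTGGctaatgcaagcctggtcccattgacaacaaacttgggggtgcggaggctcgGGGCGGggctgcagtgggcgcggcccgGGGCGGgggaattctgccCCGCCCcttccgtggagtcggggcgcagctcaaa
Hmgcs1: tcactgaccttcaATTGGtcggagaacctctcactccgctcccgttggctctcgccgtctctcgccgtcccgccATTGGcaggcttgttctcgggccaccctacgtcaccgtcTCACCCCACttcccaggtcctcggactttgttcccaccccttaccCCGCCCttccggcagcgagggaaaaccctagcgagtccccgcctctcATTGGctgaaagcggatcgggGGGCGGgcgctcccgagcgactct
Mvk: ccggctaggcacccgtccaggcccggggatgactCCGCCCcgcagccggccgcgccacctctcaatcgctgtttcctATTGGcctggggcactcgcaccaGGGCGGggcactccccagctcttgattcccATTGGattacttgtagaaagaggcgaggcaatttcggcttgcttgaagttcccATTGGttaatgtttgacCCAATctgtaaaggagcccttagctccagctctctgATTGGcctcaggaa
Mvd: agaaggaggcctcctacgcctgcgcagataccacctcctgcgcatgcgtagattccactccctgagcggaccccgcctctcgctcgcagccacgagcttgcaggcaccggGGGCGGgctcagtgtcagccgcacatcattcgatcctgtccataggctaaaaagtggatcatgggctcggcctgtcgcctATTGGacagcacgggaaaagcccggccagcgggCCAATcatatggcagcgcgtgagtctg
Acly: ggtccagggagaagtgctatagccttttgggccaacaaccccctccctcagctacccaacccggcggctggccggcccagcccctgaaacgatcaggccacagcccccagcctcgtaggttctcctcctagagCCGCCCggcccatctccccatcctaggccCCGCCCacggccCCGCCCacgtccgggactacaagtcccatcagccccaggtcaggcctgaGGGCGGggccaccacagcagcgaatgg

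Of these windows, that of Hmgcs1 holds the letters TCACCCCAC, which begin 137 bases before the start. The Mvk window holds 5 NF-Y boxes and 2 Sp1 boxes, while the Acly window holds 4 Sp1 boxes and no NF-Y box. Over the 34 windows of the 25 members, the NF-Y box was present in 20 (58.8%), against 33.8% of the 32817 windows in the whole RefSeq table. The Sp1 box was present in 23 (67.6%, against 32.7%), and the E-box in 5 (14.7%, against 6.02%), namely those of Scap, Insig1, Hsd17b7, Sc5d and Dhcr7. The sterol element core was found in 1 member window (2.94%, against 1.05%), that of Hmgcs1. None of the 4 motifs contains another, and some genes have several overlapping windows, so these shares are descriptions with no test. A match names letters in a window and not a bound site.

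Reads within intervals numbered 11.8 to 16.5 M (megareads) per Ctrl library and 11.5 to 20.0 M per Paused library. Within Paused, WT had 11.5 to 14.8 M and Smad2_KO1 14.9 to 17.1 M, without overlap, while 3 of 4 Smad2_KO2 libraries lay within the range of WT (13.2 to 20.0 M in all). The part of depth in the results was not tested. Same-numbered libraries of Smad2_KO1 and Smad2_KO2 were nearly alike by a chi-square per degree of freedom on their reads, 1 under counting noise alone. It was 1.016 to 1.27 in Ctrl and 1.001 to 1.074 in Paused, against 1.60 to 3.58 for WT with a clone. Libraries within 1 clone had 1.11 to 1.427 in Ctrl. In Paused they had 1.176 to 1.394 in Smad2_KO1 and 1.111 to 1.48 in Smad2_KO2, above all same-numbered pairs of the clones. A call in both clones is thus not shown to be 2 independent observations. The source of this likeness was not tested. For Paused replicate 2 the libraries of the clones agree within sampling noise, so counts are also given with the clones' libraries of 1 number averaged. In that setting 1 test of the averages against WT makes a call, a looser rule than a test in each clone. The strongest interval at Smad2 had 361.8 normalized reads in Ctrl WT, 363.1 in Smad2_KO1 and 354.6 in Smad2_KO2, and an accessibility value does not check the knockout. All 8 embryonic stem cell markers had an interval inside the gene or within 1000 bases, 7 of them in the start window in Ctrl and 4 in Paused. The 4 markers each of primitive endoderm, trophoblast and feeder fibroblasts had one as well, in the start window for 0, 2 and 0 in Ctrl and 1, 2 and 0 in Paused, so an interval at a gene does not by itself mark a cell type here.

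For each member, 1 interval stands for the start site: the strongest in the RefSeq start window (18 members in Ctrl, 17 in Paused) or, for the rest, the strongest inside the gene or at most 1000 bases away. These sites were open in all lines. Of the 32, 28 in Ctrl and 30 in Paused lay above the 95th percentile of level in their table. Each was picked as the strongest of its window or gene, so a high level is partly fixed by that choice. Their median level over the 12 libraries was 363 in Ctrl and 408 in Paused. For the start-window intervals of all protein-coding genes it was 216 and 264. In the values below, levels are normalized reads per interval of equal width, as mean ± SD over 4 WT libraries.

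Among the regulators, Srebf2 had the most open start site, with 513 ± 66.8 in Ctrl and 704 ± 83.2 in Paused, and Srebf1 had 390.0 ± 35.2 and 439.7 ± 63.8. Scap stood at 215 ± 26.1 and 254 ± 63.8, and Insig2, which retains the SCAP complex, at 369 ± 40.3 and 406 ± 56.8. For Insig1 the tables chose neighbouring intervals that do not match, with 135 ± 20.8 in Ctrl and 397 ± 85.8 in Paused, so no difference is drawn from them.

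The mevalonate genes, which turn acetyl-CoA into farnesyl diphosphate and then squalene, included the highest value of all members. Hmgcs1, the synthase that makes HMG-CoA, had 780.5 ± 66.0 in Ctrl and 805 ± 76.7 in Paused. Fdps, the farnesyl diphosphate synthase, had 579 ± 35.0 and 715 ± 59.8, and the thiolase gene Acat2 had 561 ± 49.8 and 619 ± 57.6. Fdft1 (squalene synthase), Idi1 (the isomerase), Mvk (mevalonate kinase) and Mvd (the decarboxylase) lay between 484 and 515 in Ctrl WT. Pmvk, the phosphomevalonate kinase, was lowest of the group at 215 ± 14.5.

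Of the genes that carry squalene to cholesterol, Msmo1, a sterol methyl oxidase, was most open (716 ± 97.6 in Ctrl and 711 ± 68.6 in Paused). It was followed by the ketoreductase gene Hsd17b7 at 571 ± 45.2 in Ctrl. Sqle (squalene epoxidase), Dhcr7 (the last reductase) and Lss (lanosterol synthase) had 513 ± 96.0, 476 ± 42.2 and 467 ± 67.8, which overlap within their SDs. Tm7sf2, Cyp51 and Sc5d were lower, at 338 ± 5.52, 308 ± 38.6 and 234 ± 40.6. Stard4, a cytosolic sterol carrier, had a single interval (chr18:33211651-33211851), the weakest start site of all members, at 32.3 ± 13.5 in Ctrl and 17.3 ± 3.05 in Paused.

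In fatty acid synthesis, Acaca, the acetyl-CoA carboxylase gene, stood at 559.6 ± 76.4 and Acly, the ATP citrate lyase gene, at 489.7 ± 66.4. Acacb, the mitochondria-associated carboxylase gene, had 315 ± 57.5, and the fatty acid synthase gene Fasn only 146 ± 30.0. Me1, whose malic enzyme supplies NADPH, was lowest of this group at 102 ± 21.7. The desaturase genes Scd1, Scd2, Fads2 and Fads1 ran from 372 ± 29.6 down to 314 ± 56.9, with neighbours in that order closer than the larger of their SDs, and the elongase gene Elovl6 had 261 ± 8.83.

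Without inhibitor, no start site differed from WT in both clones. An interval was called when both clones passed a limma adjusted p under 0.05 in the comparison with WT and moved in 1 direction. None of 32 start sites was called by limma, against 3.06% of 8985 start-window intervals of all protein-coding genes, and 1 had an unadjusted p under 0.05 in both clones. The median log2 fold change (mean of the clones) was -0.06, the same as over all start-window intervals, and 22 of the 32 lay below 0. The start site of Scd2, a stearoyl-CoA desaturase gene, was nearest to a call, with -0.25 and -0.22 and adjusted p of 0.0615 and 0.118 by limma. All 8 KO libraries were below all 4 WT libraries there, and DESeq2 size factors, TMM factors and edgeR called it, so the count was 1 under each of these.

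In Paused cells 7 of 32 start sites were called, and each of the 7 was lower in the knockouts: Srebf2, Hmgcs1, Mvk, Mvd, Acly, Acacb and Scd1. The intervals of Acacb and Scd1 were the strongest in or near the gene, not in a RefSeq start window. That of Acacb (chr5:114175674) lay inside the gene body. Over all protein-coding genes 14.1% of start-window intervals were called, 12.3% lower, so the members' 21.9% stands beside a background in which lower calls are common. Of the 17 members with an interval in a RefSeq start window, as in that background, 5 (29.4%) were called, each lower. The median over the 32 was -0.18, against -0.14 over all start-window intervals, and 28 of the 32 lay below 0. By role these were 1 of 5 regulators, 3 of 8 mevalonate genes, 0 of 8 genes between squalene and cholesterol, 2 of 5 fatty acid synthesis genes and 1 of 5 elongase and desaturase genes.

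Srebf2, which encodes the SREBP that chiefly drives sterol synthesis, had the largest difference of the start sites called. Its interval (chr15:82146949-82147149, overlapping the window printed above) had 812, 677, 613 and 715 normalized reads in the WT libraries. The clones had 531, 536, 492 and 563 in Smad2_KO1 and 524, 553, 492 and 585 in Smad2_KO2. Every KO library was below every WT library. The log2 fold change was -0.40 ± 0.08 in Smad2_KO1 and -0.38 ± 0.08 in Smad2_KO2 (SE), with limma adjusted p of 0.000392 and 0.000714. The call was made in all 23 alternative fits, leaving out any 1 library included. Without inhibitor the matching interval had 594, 452, 464 and 541 in WT and 366 to 508 over the 8 KO libraries, which overlap, and limma gave -0.16 and -0.20 with adjusted p of 0.258 and 0.155.

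At the start of Mvk (chr5:114444087-114444287), a window shared with the divergent gene Mmab, the Paused WT libraries had 703, 604, 623 and 682. The clones had 501, 515, 495 and 566 in Smad2_KO1 and 510.4, 471, 509.6 and 537 in Smad2_KO2, again with no overlap. The log2 fold change was -0.33 ± 0.07 in Smad2_KO1 and -0.36 ± 0.07 in Smad2_KO2 (SE; limma adjusted p 0.00176 and 0.0007). This call was made with each library left out and was lost with loess offsets along the level, where the larger adjusted p was 0.0844.

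The other 5 calls were smaller, and WT and KO libraries overlapped at each of them. Mvd had -0.24 and -0.29, Acly -0.24 and -0.27 and Scd1 -0.26 and -0.26 as log2 fold changes in Smad2_KO1 and Smad2_KO2. The Acacb interval had -0.27 and -0.25 and that of Hmgcs1 -0.21 and -0.20. With loess offsets Hmgcs1 turned to 0.0081, and the only calls then were Srebf2 lower and Msmo1 and Elovl6 higher. Overlap was also absent at Pmvk and Fdps, where all KO libraries lay below WT, but their adjusted p of 0.119 and 0.16 and 0.0503 and 0.0209 by limma did not pass in both clones.

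These 7 calls depended on single libraries and on scaling. Leaving out 1 library gave 2 calls (without WT replicate 1, Smad2_KO1 replicate 2 or Smad2_KO1 replicate 3), 3 (without WT replicate 4 or Smad2_KO1 replicate 1), 4 (without Smad2_KO1 replicate 4 or any of Smad2_KO2 replicates 1 to 3), 5 (without Smad2_KO2 replicate 4), 11 (without WT replicate 3) or 12 (without WT replicate 2). DESeq2 size factors, which moved the median of all intervals from 0.12 to 0.02 on the log2 scale, gave 14 lower calls. Averaging the clones' libraries of 1 number, where 1 test makes a call, gave 5. Over all 8903 start-window intervals the lower calls moved too, from 1093 in the main fit to 2720 with size factors and 1202 with averaging. They numbered 532, 1694, 2094 and 572 without WT replicates 1, 2, 3 and 4 in turn.

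**Figure D1:**
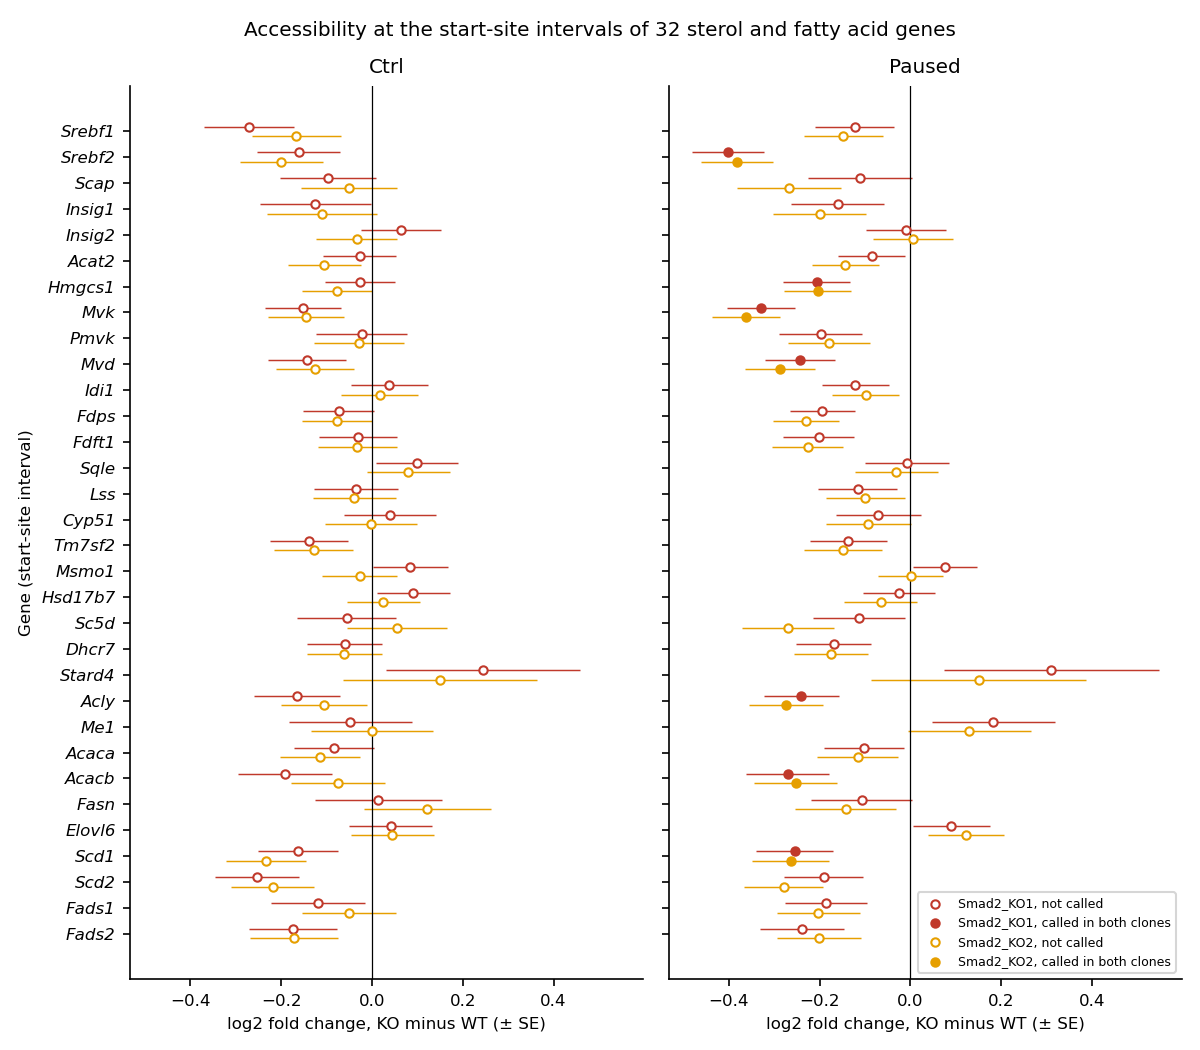
Log2 fold change of each knockout clone against WT (x axis, ± SE, n = 4 libraries a group) at the start-site interval of each of the 32 genes (y axis), in Ctrl (left) and Paused (right). Filled points are called in both clones: none in Ctrl, 7 in Paused, each left of 0.

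Over all member intervals the picture without inhibitor was sparse. Of 366 tested intervals the call was made at 12 (8 higher in the knockouts and 4 lower), a share of 3.28% against 7.15% of all 282089 tested intervals, of which 3.95% were higher and 3.2% lower. In Paused cells 49 of 319 were called (33 higher, 16 lower), a share of 15.4% against 13.9% of all 260539, of which 9.01% were higher and 4.92% lower. Both shares in Paused are close to the background. The median log2 fold change of member intervals was 0.03 in Ctrl and 0.08 in Paused, beside 0.08 and 0.12 for all intervals. The direction in Paused rests on the scaling. Size factors gave 21 higher and 29 lower, TMM factors 24 and 29, and edgeR 20 and 31, while library totals gave 37 and 14. All Paused intervals shifted in the same way, with 15653 higher and 22545 lower under size factors, and 27325 and 10984 under library totals. Without Smad2_KO1 replicate 1, 2 or 3 the Paused count was 31, 28 and 32, and without Ctrl WT replicate 4 the Ctrl count was 7. Over all intervals these counts fell too, from 36293 to 28578, 25379 and 27451 in Paused, and from 20159 to 13969 in Ctrl. With the clones' libraries of 1 number averaged, 18 Ctrl and 55 Paused intervals were called. That setting needs 1 test to pass, not 1 per clone. Under it 34885 of all 282089 Ctrl and 49325 of all 260539 Paused intervals were called, against 20159 and 36293 in the main fit. The clones themselves differed at no member interval by limma after adjustment, and 9 Ctrl and 4 Paused intervals had an unadjusted p under 0.05 (3.28% and 1.97% of all intervals). Since same-numbered libraries of the clones were nearly alike, this does not show that 2 independent clones agree.

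Direction followed level among the members as among all intervals. In the highest decile of level in Paused, which holds most start sites, 2 of 57 member intervals were called higher and 11 lower (all intervals, 2.04% and 18.1%). In the lowest 5 deciles, which are mostly sites inside genes, 18 of 144 were called higher and 1 lower (all intervals, 9.02% and 1.64%). Over all Paused intervals the decile medians ran from 0.36 at the lowest to -0.14 at the highest level, and in Ctrl from 0.23 to -0.07. What part level has in the calls at single members was not tested, beyond the loess fit that removes this trend and left 28 Paused calls (19 higher, 9 lower).

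**Figure D2:**
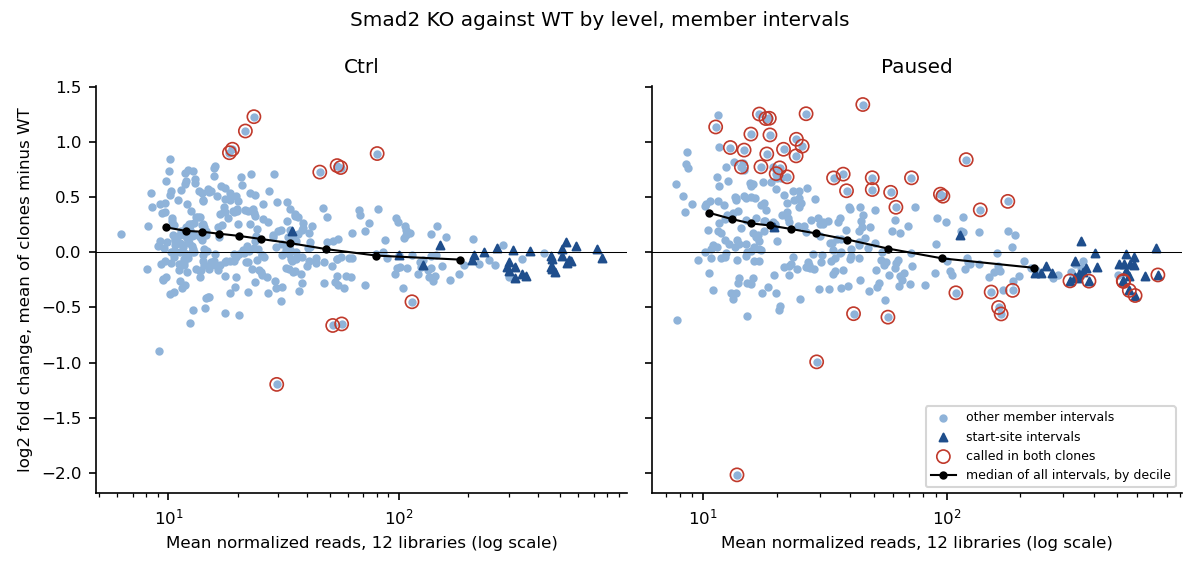
Log2 fold change (mean of the clones minus WT, y axis) against mean normalized reads over 12 libraries (x axis, log scale) for every tested member interval, with the median of all intervals by decile as a black line. In Paused the line falls from 0.36 to -0.14, and the start sites sit at its right end.

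Among the regulators, Srebf2 had called intervals inside and behind the gene as well as at its start. The interval chr15:82188047-82188247 in the gene body had 260.1, 190.0, 173 and 232 in Paused WT. The clones had 134, 129.6, 161 and 152 in Smad2_KO1 and 138, 127, 158 and 147 in Smad2_KO2, each library below WT. The log2 fold change was -0.55 ± 0.11 in Smad2_KO1 and -0.57 ± 0.11 in Smad2_KO2 (SE; limma adjusted p 0.000731 and 0.000587), a call made in all 23 alternative fits. The matching Ctrl interval had 181, 129.9, 99.7 and 149.9 in WT and 81.9 to 114 over the KO libraries, which overlap. It was called too (-0.39 and -0.50), but the call was lost with 11 of the 12 libraries left out, all except WT replicate 3, when the larger adjusted p reached 0.247. Behind the gene, where the flank runs into Shisa8, an interval at chr15:82207439 in Ctrl had -0.79 and -0.54 and one at chr15:82207750 in Paused -0.55 and -0.63. The Ctrl call was lost without Smad2_KO2 replicate 2 or 4 or WT replicate 1 or 4 (adjusted p up to 0.139), and the Paused call without Smad2_KO1 replicate 1 (0.0679). One further Srebf2 interval, chr15:82204958-82205158 in the body, went the other way in Paused, with 10.8, 8.59, 15.1 and 22.5 in WT, 18.8 to 28.4 over the KO libraries and a log2 fold change of 0.68 and 0.75. WT and KO libraries overlap there, and this higher call was lost with 10 of 12 libraries left out, all except WT replicates 3 and 4 (adjusted p up to 0.166).

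Scap, the SREBP escort, had 2 higher intervals in Paused and none called in Ctrl. The stronger, chr9:110380826-110381026, had 171, 105, 136 and 162 in WT and 184 to 214 in the KO libraries, which do not overlap, and a log2 fold change of 0.50 and 0.43. No interval of Srebf1, Insig1 or Insig2 was called in either treatment. Across the 5 regulators 0 of 67 Ctrl intervals were higher and 2 lower, and 3 of 59 Paused intervals were higher and 3 lower. Their shares called, 2.99% and 10.2%, were below the 7.15% and 13.9% of all intervals.

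In the mevalonate group the calls away from start sites centred on Fdft1, the squalene synthase gene at the branch into sterols. Near chr14:63169062-63169262 in its body, the Paused WT libraries had 14.0, 8.59, 11.9 and 19.9. The clones had 33.3, 29.9, 27.6 and 38.7 in Smad2_KO1 and 38.0, 26.2, 35.9 and 32.8 in Smad2_KO2, all above WT. The log2 fold change was 1.24 ± 0.22 in Smad2_KO1 and 1.27 ± 0.22 in Smad2_KO2 (SE; limma adjusted p 0.000141 and 0.000105). In Ctrl the matching interval had 19.2, 12.5, 3.29 and 18.3 in WT and 19.1 to 38.1 in the clones, which overlap narrowly. Its 1.18 and 1.29 was called, and lost without WT replicate 3 (adjusted p 0.0622). A pair of neighbours followed the same direction in both treatments: the interval at 63171105 had 0.65 and 0.92 in Ctrl and its match 0.60 and 0.75 in Paused, and that at 63173716 had 0.67 and 0.79 and 0.61 and 0.53. Thus 3 of 10 Fdft1 intervals in Ctrl and 3 of 11 in Paused were higher, beside 3.95% and 9.01% of all intervals. Of the neighbours, 63171105 in Ctrl was called in all 23 alternative fits. The Paused call at 63173716 was lost without Smad2_KO2 replicate 2 or WT replicate 4 (limma adjusted p up to 0.0801). The DESeq2 Wald test called neither neighbour in Paused, nor 63173716 in Ctrl.

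One further Fdft1 interval, chr14:63148649-63148849, was lower in Paused and had the largest fold change of any tested member interval. Only its WT libraries reached the smallest value required for testing, and every KO library lay below that value. The interval thus entered the test only through the group in which it was high. WT libraries had 17.3, 12.9, 37.8 and 50.3, and the clones 3.80, 8.16, 5.18 and 2.98 in Smad2_KO1 and 7.99, 5.25, 7.86 and 5.47 in Smad2_KO2. The WT libraries fall into a lower pair, replicates 1 and 2, and a higher pair, replicates 3 and 4. With all 4, limma gave -2.22 ± 0.37 in Smad2_KO1 and -1.82 ± 0.37 in Smad2_KO2 (SE; adjusted p 6.02e-05 and 0.000657), and with WT replicates 1 and 2 alone, a setting chosen after seeing the data, -1.28 (adjusted p 0.129). Hmgcs1 had a weak flank interval at chr13:119710088, inside Nim1k, that was higher in Paused (1.07 and 1.44), a call lost without Smad2_KO1 replicate 2 or 3 or WT replicate 4 (adjusted p up to 0.129). Acat2, Pmvk, Idi1 and Fdps had none called in either treatment. Over the group, 3 of 55 Ctrl intervals were higher and 0 lower, and 4 of 45 Paused intervals were higher and 4 lower. These calls make up 5.45% and 17.8%, beside 7.15% and 13.9% of all intervals.

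Between squalene and cholesterol, 9 of 45 Paused intervals were higher and 1 lower, while in Ctrl 0 of 47 were higher and 2 lower. The higher ones were weak sites of Sqle (3), Lss (2), Hsd17b7 (2) and Dhcr7 (2). The group's share called was 22.2% in Paused and 4.26% in Ctrl, beside 13.9% and 7.15% of all intervals. Of all Paused intervals 9.01% were higher and 4.92% lower. At chr15:59318023-59318223 in Sqle, the epoxidase gene, WT had 9.72, 8.59, 10.8 and 7.95 in Paused and the clones 15.2 to 33.0, without overlap (0.99 and 1.44; limma adjusted p 0.0041 and 8.61e-05). In Lss the interval at chr10:76541147 had 9.72, 10.7, 12.9 and 7.95 in WT and 13.0 to 28.1 in the clones, also without overlap, but the call was lost without Smad2_KO1 replicate 2 (adjusted p 0.0648). An Sqle flank interval at chr15:59310414 was called at 1.15 and 1.13 and lost with 8 of 12 libraries left out, all except Smad2_KO1 replicate 3, Smad2_KO2 replicate 4, and WT replicates 2 and 3. Cyp51 and Sc5d had no call in either treatment.

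The lower calls in this group moved with WT libraries that stood apart. In the body of Msmo1, Ctrl WT libraries had 22.4, 17.0, 89.8 and 83.0 at chr8:64726291-64726491 and the clones 13.1 to 24.4. Paused WT libraries had 27.0, 19.3, 82.0 and 59.6 at the matching interval and the clones 12.0 to 26.0. In both tables WT replicates 3 and 4 were high, and replicates 1 and 2 lay within or next to the range of the clones. Limma gave -1.32 and -1.08 in Ctrl and -0.91 and -1.08 in Paused with all WT libraries, and -0.15 (adjusted p 0.963) and -0.21 (adjusted p 0.813) with WT replicates 1 and 2 alone. Both calls were also lost without WT replicate 3 or WT replicate 4 (adjusted p up to 0.113 in Ctrl and 0.134 in Paused), and that in Paused without Smad2_KO1 replicate 3. A flank interval of Tm7sf2, a sterol reductase gene, at chr19:6069032 and inside Vps51, was lower in Ctrl (-0.61 and -0.69) and the call was lost without WT replicate 3 or 4 (adjusted p up to 0.0705).

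Stard4 was not called in either treatment. Its WT libraries had 31.0, 50.2, 30.7 and 17.2 in Ctrl and 20.5, 17.2, 18.3 and 13.2 in Paused, and both ranges overlap those of the clones, 28.2 to 47.1 and 15.9 to 28.5.

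Fatty acid synthesis genes had calls in both directions in Paused: 9 of 106 intervals were higher and 7 lower, and in Ctrl 3 of 110 were higher and 0 lower. The Paused shares are near those of all intervals, 9.01% and 4.92%. The intervals in the next sentences, other than those of Me1 and that of Acaca in Ctrl, were chosen after their values were seen. Inside Acacb, chr5:114162186-114162386 had 201, 228, 191 and 191 in Paused WT and 142, 151, 141 and 136 in Smad2_KO1 and 139.8, 127, 165 and 141 in Smad2_KO2. No KO library reached WT, and limma gave -0.50 ± 0.10 in Smad2_KO1 and -0.50 ± 0.10 in Smad2_KO2 (SE; adjusted p 0.00076 and 0.000828), a call made in all 23 alternative fits. In Ctrl the matching interval had -0.19 and -0.30 (adjusted p 0.233 and 0.05) and was not called. Acacb as a whole had 3 higher and 4 lower of 32 Paused intervals, size factors left 1 higher and 4 lower, and loess offsets left 0 higher and 1 lower.

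Inside Fasn, the synthase gene itself, the interval chr11:120814924-120815124 went the other way. Paused WT had 57.2, 48.3, 58.3 and 39.7 and the clones 105, 87.9, 73.4 and 69.5 in Smad2_KO1 and 78.9, 92.2, 80.8 and 66.7 in Smad2_KO2, all above WT. The log2 fold change was 0.71 ± 0.15 in Smad2_KO1 and 0.64 ± 0.15 in Smad2_KO2 (SE; limma adjusted p 0.000877 and 0.00226), and all 23 alternative fits called it. Just past the gene, at chr11:120805687, a Fasn flank interval was lower (-0.35 and -0.39). Acaca had an interval higher in Ctrl at chr11:84152268-84152468, also inside Gm11437. There WT had 9.61, 7.17, 15.3 and 16.2 and the clones 18.1 to 34.6, without overlap, with 1.12 and 1.08 by limma and a call in all 23 alternative fits. In Paused, Acaca intervals were higher at 84193396 (0.58 and 0.47) and lower at 84132327 (-0.56 and -0.56). Me1 had 2 weak higher intervals in each treatment, at 86578302 (0.88 and 0.93) and 86668731 (1.03 and 0.84) in Ctrl. The first was lost without Smad2_KO1 replicate 3 or 4, Smad2_KO2 replicate 1 or WT replicate 1, and the second without Smad2_KO2 replicate 1 or WT replicate 4 (adjusted p up to 0.118 and 0.0900).

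Elovl6, which extends palmitate to stearate, had the most calls of any member in Paused and the most tested intervals in both treatments. In Paused 8 of its 42 tested intervals were higher in the knockouts and none lower, and in Ctrl 2 of 56 were higher and none lower. The Paused share of 19.0% stands beside 13.9% of all intervals and is below those of Hsd17b7, Sqle and Fdft1 (40%, 37.5% and 36.4%, each of few intervals), and the Ctrl share of 3.57% is below the 7.15% of all intervals. The Elovl6 median log2 fold change was 0.31 in Paused and 0.33 in Ctrl, with 33 of 42 and 47 of 56 intervals above 0. Weak intervals leaned the same way in the whole genome. Over all intervals in the lowest 5 deciles of level the median was 0.27 in Paused and 0.18 in Ctrl. With size factors the Paused split was 6 higher and 1 lower and the median 0.21, and with loess offsets 8 higher, 0 lower and 0.11. In Ctrl the median with loess offsets was 0.23. The start site had 339 in WT, 361 in Smad2_KO1 and 368 in Smad2_KO2 in Paused, and was not called in the main fit. Its log2 fold change was 0.11, beside a median of -0.14 over all start-window intervals. With loess offsets it was called higher.

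About 9.27 kb into the gene, at chr3:129541557-129541757, Ctrl WT libraries had 54.5, 50.2, 50.4 and 46.4. The clones had 104, 74.0, 112 and 75.1 in Smad2_KO1 and 103, 105, 103 and 87.5 in Smad2_KO2, all above WT. The log2 fold change was 0.82 ± 0.14 in Smad2_KO1 and 0.97 ± 0.14 in Smad2_KO2 (SE; limma adjusted p 6.99e-05 and 4.83e-06). In Paused the matching interval had 111, 61.2, 91.7 and 57.0 in WT and 145, 153, 149 and 126 in Smad2_KO1 and 142, 151, 132 and 118 in Smad2_KO2, again without overlap, and 0.88 and 0.80 (adjusted p 3.39e-05 and 0.000127 by limma).

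A second site lay 31.8 kb into Elovl6. At chr3:129564054-129564254 Ctrl WT had 45.9, 38.5, 27.4 and 39.9 and the clones 53.9, 62.7, 76.8 and 55.5 in Smad2_KO1 and 65.1, 77.4, 60.6 and 66.4 in Smad2_KO2. The matching Paused interval had 22.7, 23.6, 19.4 and 21.2 in WT and 61.8, 65.2, 46.6 and 49.7 in Smad2_KO1 and 51.9, 65.2, 53.9 and 60.2 in Smad2_KO2. WT and KO libraries did not overlap in either treatment. The log2 fold changes were 0.71 and 0.83 in Ctrl (limma adjusted p 0.00228 and 0.000395) and 1.31 and 1.37 in Paused (8.35e-07 and 3.79e-07). Whether the knockout difference is larger in Paused was not tested, because the tables were scaled separately. Both sites were called in all 23 alternative fits of both tables. With WT replicates 1 and 2 alone, the Ctrl interval at 129564054 had 0.60 and was not called (adjusted p 0.0578). Of the other Paused calls in Elovl6, those at 129584576 (0.99 and 0.94) and 129595900 (1.30 and 1.13) were made in all 23 alternative fits as well.

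**Figure D3:**
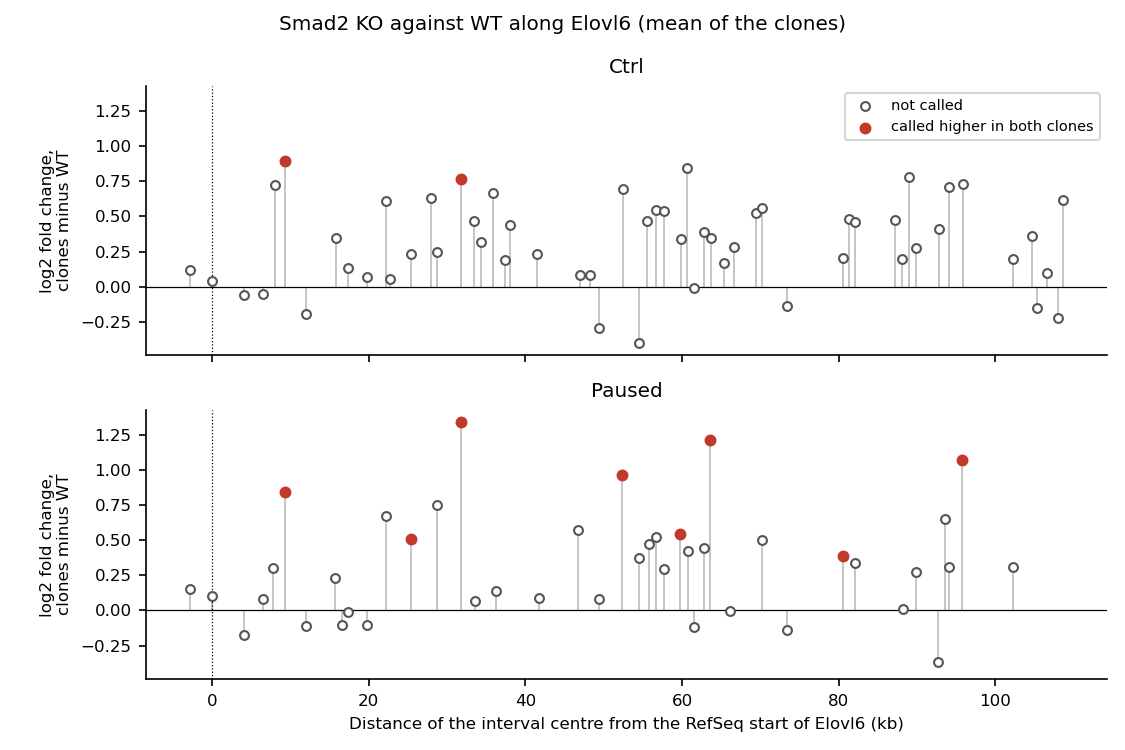
Log2 fold change (mean of the clones minus WT, y axis) of each tested interval along Elovl6 against its distance from the RefSeq start (x axis, kb), in Ctrl (top) and Paused (bottom). Filled points are called in both clones: 2 in Ctrl and 8 in Paused, none of them at the start.

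The desaturase genes had 1 call between them, the Scd1 start site in Paused, and Scd2, Fads1 and Fads2 had none in either treatment. Counting Elovl6, the elongation and desaturation group had 2 higher and 0 lower of 86 Ctrl intervals, and 8 higher and 1 lower of 63 in Paused. That is 2.33% and 14.3% called, beside 7.15% and 13.9% of all intervals.

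**Figure D4:**
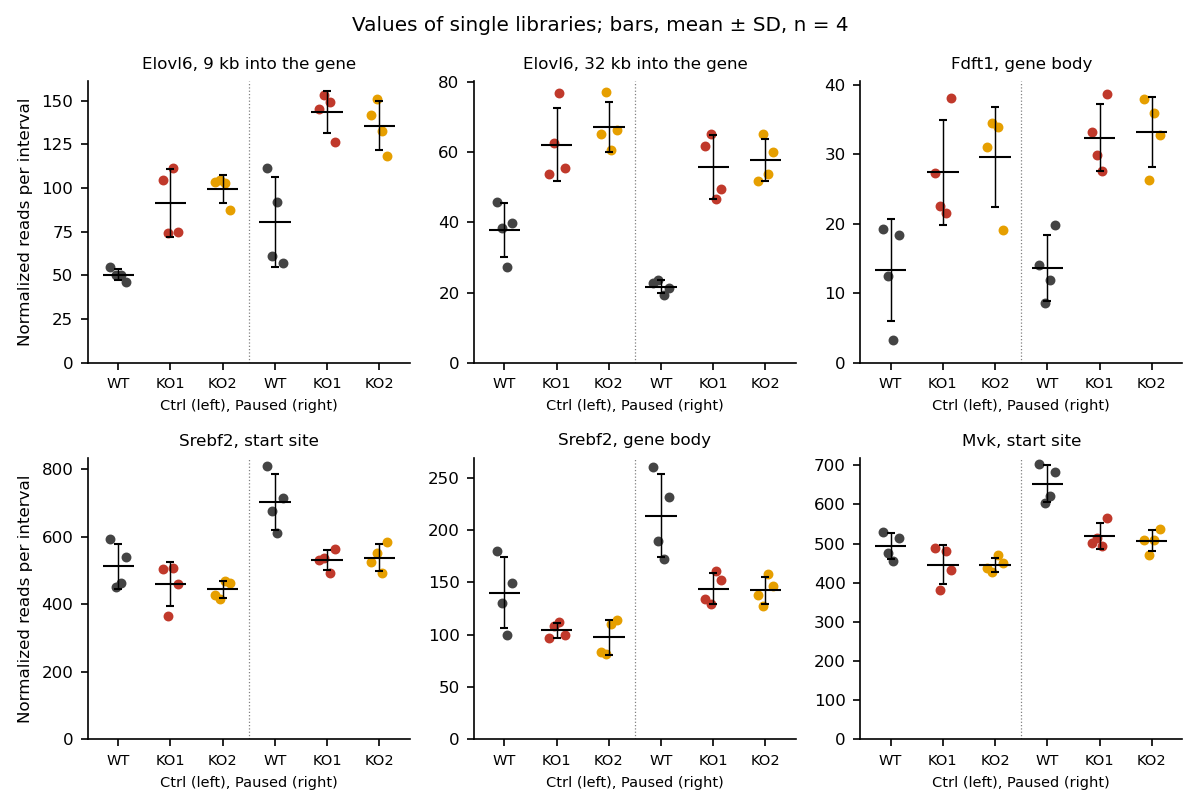
Normalized reads of every library (points; bars, mean ± SD, n = 4) at 6 member intervals for WT, Smad2_KO1 and Smad2_KO2 in Ctrl (left of each panel) and Paused (right). WT and KO libraries separate at both Elovl6 sites in both treatments, and at the Srebf2 and Mvk start sites in Paused, as the values above show.

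Over all roles 13 members had no call in either treatment: Srebf1, Insig1, Insig2, Acat2, Pmvk, Idi1, Fdps, Cyp51, Sc5d, Stard4, Scd2, Fads1 and Fads2. Of their 78 tested Ctrl intervals, 3 higher and 3 lower had an unadjusted limma p under 0.05 in both clones, and of 56 in Paused 1 higher and 7 lower. On recovered reads edgeR called 2 of them in Ctrl and 8 in Paused, and DESeq2 0 and 7.

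Calls in the 2 treatments were set side by side at the 242 member intervals that matched one to one, with an overlap of at least 50% of each, and were tested in both tables. Of these, 10 were called in Ctrl, 38 in Paused and 7 in both with the same direction: 3 of Fdft1 and 2 of Elovl6 higher, 1 of Srebf2 and 1 of Msmo1 lower. That is 70% of the Ctrl calls and 18.4% of the Paused calls, beside 60% and 33% over all 208526 matched intervals. No matched interval was called in opposite directions, though different intervals of 1 gene were. Acaca had a higher one in Ctrl and a lower one in Paused. Fdft1 had 3 higher ones in Ctrl and a lower one in Paused, and Srebf2 lower ones in Ctrl and a higher one in Paused.

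Pausing was described in WT by the same 242 intervals, with the log2 difference Paused minus Ctrl centred on the median of all matched intervals. No test was made, since each table has its own scaling. The members' median was 0.05 after centring, and 30 intervals (12.4%) had all 4 Paused WT libraries above all 4 Ctrl WT libraries and 11 (4.55%) below, against 9.83% and 8% of all matched intervals. Scaling reads to their totals over the matched intervals gave a median of -0.04 with 19 above, so the sign of this median rests on the scaling. Without Ctrl WT replicate 4 the number below was 17 (10.7% of all matched intervals), and without Paused WT replicate 3 it was 21 (10.6%), where 3 libraries separate from 4 more easily by construction. The same centred median was 0.06 in Smad2_KO1, with 31 intervals above and 21 below (all intervals, 11.7% and 10.9%), and 0.03 in Smad2_KO2, with 31 and 15 (11% and 9.33%). By role, 8 of 35 mevalonate intervals were above and 1 below, and 11 of 79 fatty acid synthesis intervals were above and 3 below. In elongation and desaturation 2 of 46 were above and 3 below.

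At start sites the WT difference between Paused and Ctrl was small. Over 30 matched start sites the median was 0.11, beside 0.20 over 8213 start-window intervals of all genes. In 4, Mvk, Pmvk, Fdps and Elovl6, all Paused WT libraries lay above all Ctrl WT libraries, and in none below, against 17% and 0.986% of all start-window intervals. Mvk had 531, 475, 457 and 513 in Ctrl WT and 703, 604, 623 and 682 in Paused WT as deposited, a centred difference of 0.31, and 0.12 and 0.07 in the clones. Elovl6 had 264, 259, 249.7 and 271 and 369, 302, 339.9 and 344, a difference of 0.29. Only at Elovl6 among the 4 did the libraries also separate in each clone (0.32 and 0.34). The Srebf2 start had 0.37 in WT with overlap, beside 0.11 and 0.16 in the clones. Stard4 was lower in Paused at -0.87 in WT, where libraries overlap, and at -0.83 and -0.90 in the clones, where they do not.

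Larger pausing differences lay away from start sites. The flank of Sc5d, the lathosterol desaturase gene, held the largest positive one at chr9:42249157, with 20.3, 17.0, 30.7 and 20.5 in Ctrl WT and 61.5, 49.4, 70.1 and 58.3 in Paused WT. The centred difference was 1.33 in WT, 0.98 in Smad2_KO1 and 1.04 in Smad2_KO2, without overlap in any line. An interval inside Acly at 100506840 had 0.97, 0.96 and 0.98 in the same order, also without overlap. In WT, Srebf2 at 82199433 had 0.79, Dhcr7 at 143848767 0.76, Acacb at 114143632 0.72 and Insig1 at 28080723 0.68. Of the 23 matched Acacb intervals 7 (30.4%) were above in WT and none below, beside 9.83% and 8% of all matched intervals. In Smad2_KO1 7 were above and 2 below, and in Smad2_KO2 4 and 0. This gene was picked out after its values were seen.

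The largest negative differences in WT were at Hmgcs1, Elovl6 and Me1. The Hmgcs1 flank interval at 119710161 had -1.53 in WT, and -0.91 and -0.58 in the clones, whose libraries overlap between treatments. Inside Elovl6, the interval at 129581656 had 71.6, 87.8, 98.6 and 67.9 in Ctrl WT and 33.5, 27.9, 38.8 and 26.5 in Paused WT. Its difference was -1.42, with -1.12 and -1.02 in the clones and no overlap in any line. In the Me1 flank at 86576741 the values were -1.08, -1.18 and -0.88, also without overlap. Scap at 110374397 had -0.78 in WT but 0.27 and 0.18 in the clones, with overlap there. Tm7sf2 at 6063763 had -0.68 and Fasn at 120816811 -0.56 in WT.

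**Figure D5:**
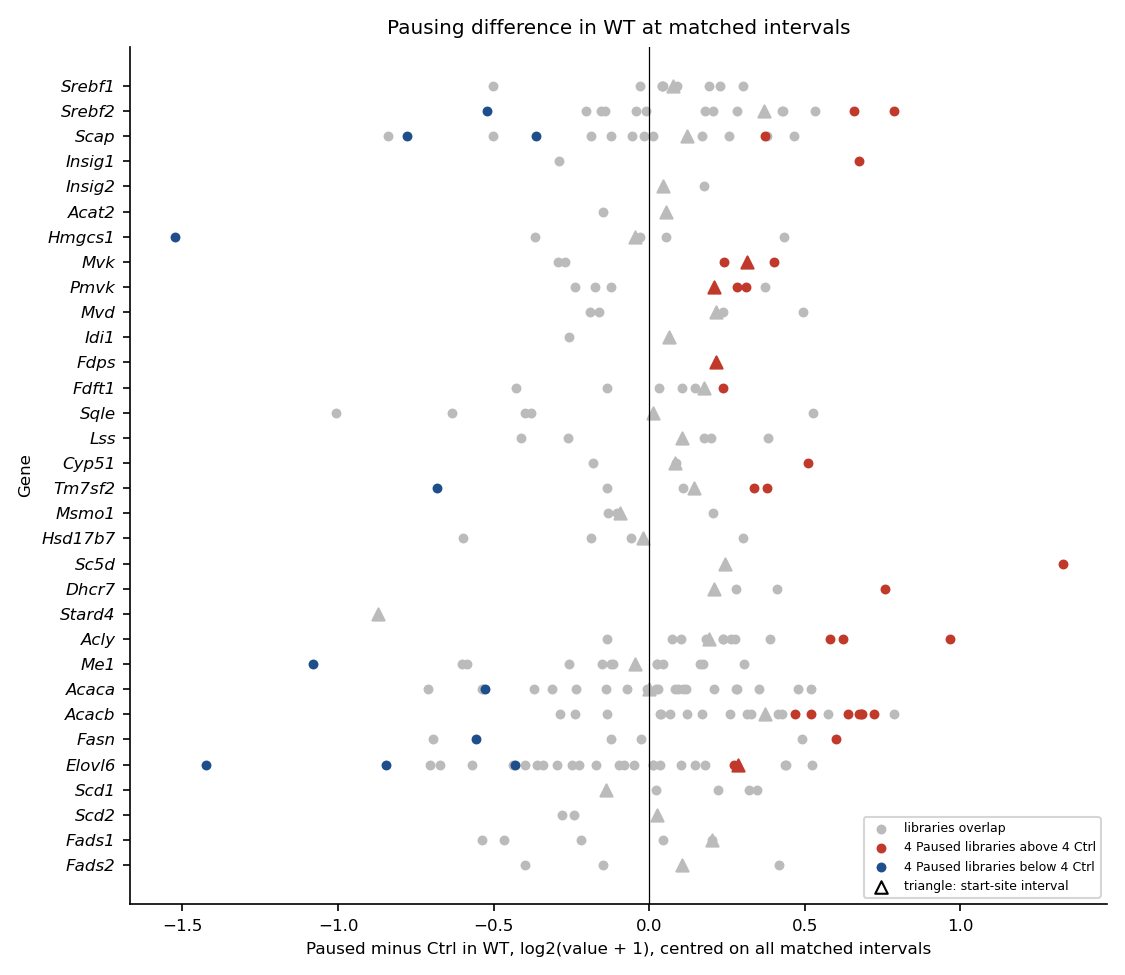
Centred log2 difference Paused minus Ctrl in WT (x axis) for the 242 matched member intervals, by gene (y axis). Colour marks the 30 intervals with all 4 Paused WT libraries above Ctrl and the 11 with all below, and triangles mark start sites.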

How the data were processed

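ATAC-seq values of 24 libraries were analysed, 12 per treatment in 1 table each. Per the submitters' processing notes, Trim Galore, FastQC, Bowtie2 2.4.1, MACS3 3.0.3 and DiffBind 3.16.0 were used with build mm10. Duplicate handling, Tn5 shifting and mitochondrial filtering are not given in the sources used here. The deposited library values are normalized signal: the authors divided the reads of an interval by a factor for its library, with each treatment scaled separately. Low values fall on whole multiples of 1 step per library, which gave back whole reads. The step was so near 1 in 4 columns that reads and rounded values are hard to tell apart there. Per the file headers, the authors also deposited a log2 Fold and a p-value with its false discovery rate for KO against WT, which were not used for the results.

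Intervals with a value of 10 or more in at least 4 of 12 libraries were tested with limma 3.58.1 (R 4.3.3; lmFit, eBayes with trend) on log2(value + 1), which understates the change of weak intervals. The 12 libraries of a table were fitted together, with Benjamini-Hochberg adjustment over all tested intervals and calls at an adjusted p under 0.05 in both clones. The script recovered seeded changes in simulated data. Intervals were placed with RefSeq gene coordinates of GRCm38.p6: of 17491 start windows 51.4% (Ctrl) and 50.9% (Paused) overlapped an interval, and 9.67% and 9.08% after a shift of 10 kb. Motifs were counted with Python 3.11.15.

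Named in full are the start sites, the first 10 called intervals per treatment by the smaller absolute log2 fold change of the clones (at most 2 per gene), and the 6 largest non-overlapping pausing differences in each direction (1 per gene). Other intervals given with values were chosen after these were seen. The members and lists were chosen with earlier results of these data known. Alternatives were DESeq2 1.42.0 size factors and Wald test, edgeR 4.0.16 on the recovered reads, TMM factors, library totals, loess offsets along the level, no filter, a pseudocount of 0.1, a replicate block, the compared groups alone, averaged clone libraries, and leaving out each library. Libraries are named by group and replicate.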

Additional observations from a re-analysis of the deposited data

Results flagged for a closer look

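In 4 of 104 groups of 4 libraries examined at named member intervals, 1 library stood apart from the other 3 by Dixon's test at the 95% level, which chance gives in about 1 in 20 groups. At the Scd1 interval 44407784 in Paused, Smad2_KO2 replicate 2 had 318.71 normalized reads, while the other 3 libraries had 290.75 to 292.65. At the Msmo1 interval 64726291 in Ctrl, Smad2_KO2 replicate 3 had 24.43 (others 17.11 to 18.04). At the Elovl6 interval 129541557 in Ctrl, Smad2_KO2 replicate 4 had 87.55 (others 103.05 to 104.66), which still lay above every WT library. At the Acacb flank interval 114143632 in Ctrl, WT replicate 3 had 29.57 (others 17.02 to 18.33). Their part in the results was not tested beyond the fits without each library.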

How the results depend on the processing

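The number of member intervals called in Ctrl, 12 as reported, was 7 with the DESeq2 Wald test and 7 to 16 with 1 library left out. With WT replicates 1 and 2 alone, a setting chosen after seeing the data, it was 6. The number of Ctrl start sites called, 0 as reported, was 1 with edgeR, with DESeq2 size factors and with TMM factors, and 0 to 0 with 1 library left out. In Paused the 49 member intervals became 32 with the DESeq2 Wald test, 28 with loess offsets, 32 at an absolute log2 fold change of 0.5 or more, and 28 to 57 with 1 library left out. The 7 Paused start sites became 13 with DESeq2, 14 with edgeR, 14 with size factors and 14 with TMM factors. They became 3 with only the groups compared, 3 with loess offsets and 0 at an absolute log2 fold change of 0.5 or more. With 1 library left out they numbered 2 to 12. Over all 8903 start-window intervals, 1255 calls became 2335 with DESeq2, 2823 with edgeR and 2825 with size factors. There were 2592 with TMM factors, 831 with only the groups compared and 552 with loess offsets. With the replicate number as a block, 14 Ctrl and 55 Paused member intervals and 0 Ctrl and 9 Paused start sites were called. Deviations of same-numbered libraries correlated at 0.008 to 0.109 (Ctrl) and 0.034 to 0.187 (Paused) between the clones, and at -0.006 to 0.045 and -0.007 to 0.063 between WT and a clone. Since not every same-numbered pair passed 0.1, the numbers were not taken to pair the groups. Between the clones in Paused, all 4 Smad2_KO1 and 3 of 4 Smad2_KO2 libraries correlated best with their own number in the other clone. In Ctrl 2 and 1 of 4 did. The source of this likeness was not tested.

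The WT pausing median of 0.05 was 0.14 without centring, -0.036 with reads scaled to totals over matched intervals, and 0.04 to 0.08 with 1 library left out. The 30 intervals above became 19 with totals, 19 with an overlap of 90%, and 31 to 42 with 1 library left out. The 11 below became 6 with an overlap of 90% and 12 to 21 with 1 library left out. Separating 3 libraries from 4 is easier by construction, and over all matched intervals the shares with 1 library left out also rose, to 11.2% to 13.1% above and 9.98% to 10.7% below. At 57 single intervals, alternative values of calls and of WT pausing differences were labelled together. The label was the same for 991, while 198 kept the direction but not the call. For a call, the same means direction and side of the threshold. Pausing differences have no test, and there it means a shift smaller than the relative SD of the WT libraries. Thus 991 is not a count of calls kept. The sign changed in 1, the Paused Hmgcs1 start site at 0.0081 with loess offsets. The causes were not tested. Of the called intervals, 4 of 8 higher and 0 of 4 lower in Ctrl, and 6 of 33 higher and 4 of 16 lower in Paused, were called in all 23 alternative fits. Depth limits weak intervals: with values near 10 normalized reads, counting error alone is a large share of the spread.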

Other observations

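Genes that process SREBPs, store, export or sense sterols, or supply the same enzymes with substrates were counted beside the members from a list of 30 genes, of which 29 had intervals. In Ctrl 16 of their 350 tested intervals were called in both clones (9 higher, 7 lower; 4.57%), and in Paused 44 of 343 (27 higher, 17 lower; 12.8%), each below the shares of all intervals, 7.15% and 13.9%. Of their 29 start sites none was called in Ctrl by limma and 4 were lower in Paused, beside 3.06% called in Ctrl and 12.3% lower in Paused over all start-window intervals. In Ctrl 3 of them had an unadjusted p under 0.05 in both clones, and edgeR called 3 and DESeq2 0, and in Paused edgeR called 12 and DESeq2 9.

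The largest Ctrl difference was inside Lpin1, which encodes a phosphatidate phosphatase, at 16635980. Its WT libraries had 22.4, 14.3, 55.9 and 80.9 and the clones 4.03 to 13.1 (-1.81 and -2.26). WT replicates 3 and 4 were the high ones, and with replicates 1 and 2 alone, a setting chosen after seeing the data, the mean log2 fold change of the clones was -1.11 (limma adjusted p 0.221). Soat1, which esterifies cholesterol for storage, showed the same WT split at 156454474, with 48.1, 43.9, 117 and 104 in Ctrl WT and 23.4 to 40.04 in the clones (-1.08 and -1.15). Its Paused match at 156454454 had 28.1, 25.8, 70.1 and 57.0 in WT and 8.16 to 19.0 in the clones (-1.46 and -1.37). With WT replicates 1 and 2 alone these became -0.49 (adjusted p 0.224) and -0.81 (0.0817), both short of a call by limma. A Soat1 flank interval at 156476159 was lower in Ctrl (-1.20 and -0.98) and still called with these 2 WT libraries at -0.77.

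Inside Elovl7, an elongase gene, the WT libraries had 11.9, 15.0, 33.5 and 47.7 in Paused and the clones 7.66 to 15.0, so that WT replicates 1 and 2 lay within or next to the range of the clones. Its -1.13 and -1.17 was lost without WT replicate 4 (adjusted p 0.103) and was -0.40 with replicates 1 and 2 alone (0.551). Idh1, a cytosolic source of NADPH, was higher in both treatments, with 20.2 in WT and 38.2 over the clones (1.00 and 0.92) in Ctrl and 28.4 in WT and 66.2 over the clones (1.21 and 1.24) in Paused. With WT replicates 1 and 2 alone the Idh1 values were 0.66 (not called, adjusted p 0.112) and 1.38 (called). Abca1, a sterol exporter, had 2.00 and 2.06 at a weak site in Paused. This call was made with each library left out and was lost with WT replicates 1 and 2 alone (1.21, adjusted p 0.0937).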
